A study of Mus musculus with 44 samples.

Results

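The comparison described here sets macrophages without the corepressor NCoR (NKO_IL4) against control macrophages (WT_IL4) after 6 h of interleukin 4 (IL4), with all genes of the count table as the members compared. The 4 libraries, 2 per genotype, were chosen by their treatment and genotype labels out of 44 in the series, without use of any measured value. Every gene listed in the table (24940) was a candidate, and 13407 passed the filter on low counts and were tested. The cells were bone marrow-derived macrophages (BMDMs), grown from the marrow of C57BL/6 mice aged 8 to 12 weeks in medium conditioned by L929 cells, a source of M-CSF. The WT mice were NCoR flox/flox without Cre, and the NKO mice were NCoR flox/flox with LysM-Cre, in which Cre is driven by the Lyz2 gene and acts in myeloid cells. Both groups therefore carried the floxed allele, and the groups also differed in the Cre knock-in itself. The series compared the 2 genotypes under several ligands. All IL4 libraries carried the same date stamp as vehicle (Veh), IFNβ (IFNb) and poly I:C (PolyIC) libraries of both genotypes, which were used for comparison. The labels do not say whether the 2 libraries of a group came from separate mice, so the p-values measure the spread between libraries, which may be technical.

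NCoR is a large scaffold that unliganded nuclear receptors, such as LXR, REV-ERB and thyroid hormone receptors, bring to their target genes together with the histone deacetylase HDAC3 and the subunits TBL1X, TBL1XR1 and GPS2. LXR receptors sense oxidised cholesterol and control genes for cholesterol export and fatty acid synthesis. IL4 acts through the IL4 receptor, JAK kinases and STAT6, and in macrophages it turns on a programme called alternative activation, with Arg1, Retnla and Chil3 among its best-known genes.

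The targeted gene was lower in both knockout libraries. Ncor1 (chr11:62316426-62438515 in mm10, minus strand) was at 156 and 181 CPM (read counts scaled to library size by TMM) in the WT_IL4 libraries and at 56.0 and 52.9 CPM in the NKO_IL4 libraries. The groups did not overlap, and the difference was a log2 change of -1.63 ± 0.06 (SE, 2 libraries per group, here and below), with an adjusted p of 4.05e-29. The SE was derived from the log2 change and the F statistic of edgeR's test, whose spread was estimated over all 24 libraries of the table. Each CPM value is a sum over the exons of the gene, and the deleted exons cannot be separated from the others. Hdac3 had a log2 difference of -0.08 ± 0.08 and did not pass the test. Lyz2, the lysozyme gene into which Cre is inserted, was at 6252 and 6160 CPM in WT_IL4 and at 3752 and 3618 CPM in NKO_IL4, a log2 change of -0.75 ± 0.09 (adjusted p = 1.08e-05). Its fall moves with the Cre allele, and the part of the knock-in in it cannot be told apart from that of NCoR loss.

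Both TBL1-type subunits of the complex were higher in the knockout. Tbl1xr1 was at 88.0 and 95.6 CPM in WT_IL4 and at 167 and 177 CPM in NKO_IL4 (log2 change 0.90 ± 0.06, adjusted p = 2.36e-19). Tbl1x was at 20.5 and 21.7 CPM against 33.7 and 33.1 CPM (0.66 ± 0.08, adjusted p = 1.09e-08). For both genes the knockout libraries lay above the control libraries without overlap. Of the 12 listed genes of the NCoR complex, these 2 were called higher and Ncor1 lower.

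The libraries held 10675245 and 10905129 gene counts in WT_IL4 and 12966048 and 12424842 in NKO_IL4, and 3 counts corresponded to 0.231 to 0.281 CPM. All 8 macrophage markers were present, from 6.57 CPM upward, and their summed level was 14510 and 14340 CPM in WT_IL4 and 11500 and 11280 CPM in NKO_IL4. Of these markers Fcgr1 (log2 change -1.01 ± 0.16), Aif1 (-1.06 ± 0.21) and Lyz2 were called lower, whereas Cd68 (0.02 ± 0.05) and Csf1r (-0.13 ± 0.05) were not called. Of 50 markers of 11 other blood or vessel cell types, 42 stayed under 1 CPM in all 4 libraries. The T cell markers Cd28 (47.7 and 50.7 against 22.3 and 24.1 CPM) and Cd4 (4.33 and 5.23 against 2.94 and 3.26 CPM) were called lower, while Cd3d and Cd3g were at 0 in all 4 libraries. Cd4 lost its call when any single IL4 library was left out, under DESeq2, without the filter on low counts and in a fit of the compared groups only. The 6 stromal markers summed to 103 and 128 CPM in WT_IL4 and to 72.0 and 78.5 CPM in NKO_IL4, and Col1a1 (-0.71 ± 0.15) and Col3a1 (-0.70 ± 0.15) were called lower. Col1a1 was at -0.55 without WT_IL4 replicate 2 and Col3a1 at -0.53 without NKO_IL4 replicate 1, both under the fold threshold. In bulk libraries, fewer cells of a type and less RNA per cell cannot be told apart.

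At IL4, 255 genes were higher in the knockout (1.9% of those tested) and 313 were lower (2.33%), together 4.24%. Counts of called list members are to be read against these shares. A call required an adjusted p below 0.05 in edgeR's quasi-likelihood test and a change of more than 1.5-fold. Called genes were selected on these same libraries. A lack of overlap between groups, wherever given, therefore describes their values and is no further support. Its share over all genes tested was not counted. Of the called genes, 88 differed by more than 2-fold upward and 100 by more than 2-fold downward. Those that averaged at least 5 CPM in either group were 204 higher and 206 lower. The median log2 difference over all genes tested was 0.

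**Figure D1:**
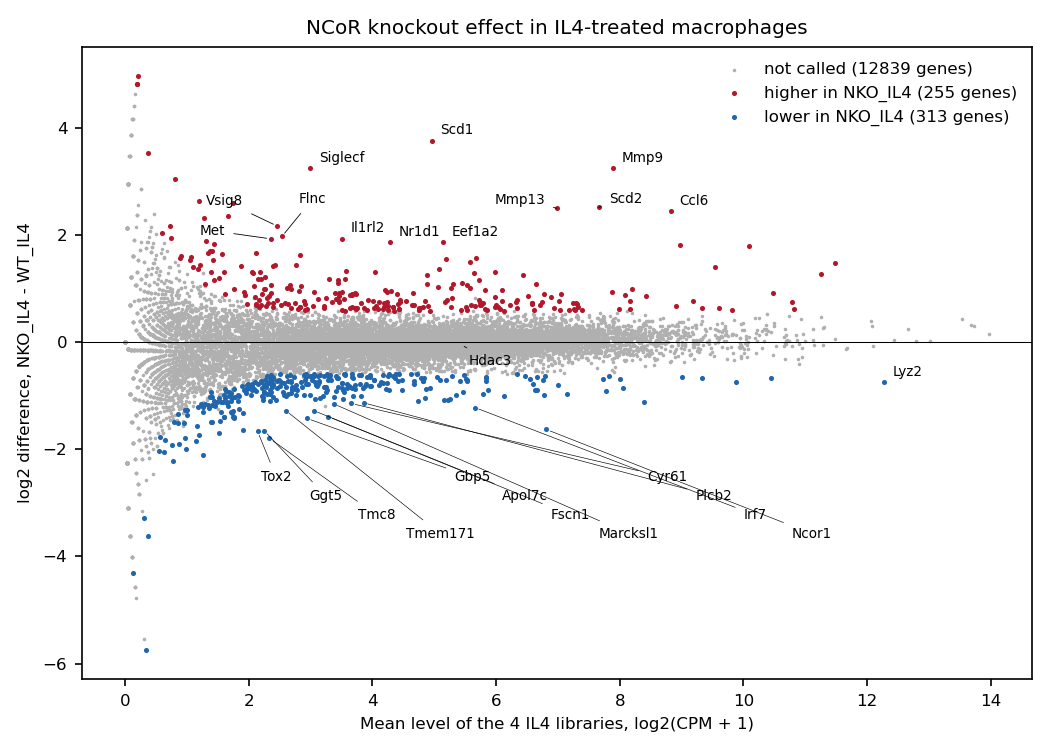
Log2 difference between NKO_IL4 and WT_IL4 (vertical axis) against the mean level of the 4 IL4 libraries in log2(CPM + 1) (horizontal axis), 1 point per tested gene. The 255 genes called higher are red and the 313 called lower are blue, and the labelled higher genes reach larger differences (Scd1, 3.76) than the labelled lower genes (Tmc8, -1.79).

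The gene with the largest increase among those averaging at least 5 CPM was Scd1 (chr19:44394450-44407709, minus strand), which encodes a stearoyl-CoA desaturase, the enzyme class that makes monounsaturated fatty acids. Scd1 was at 3.93 and 4.30 CPM in WT_IL4 and at 58.0 and 54.2 CPM in NKO_IL4, 13.6-fold higher (log2 change 3.76 ± 0.15, adjusted p = 1.17e-22). Scd2 (chr19:44293676-44306862, plus strand), the neighbouring desaturase, was at 61.7 and 58.0 CPM against 341 and 345 CPM, 5.73-fold higher (log2 change 2.52 ± 0.11, adjusted p = 1.49e-10). Both knockout libraries stood far above both controls for each gene. The 2 desaturases are close paralogs, and how reads shared by both were assigned was not tested.

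Of 17 LXR target genes tested, 5 were called higher and 1 lower, with a median log2 difference of 0.25. Abca1, the cholesterol exporter of macrophages, was at 372 and 437 CPM in WT_IL4 and at 1085 and 1068 CPM in NKO_IL4 (log2 change 1.41 ± 0.08, adjusted p = 2.42e-11). The knockout libraries did not overlap the controls. Pltp, a phospholipid transfer protein (0.61 ± 0.07), and Lpcat3, which remodels phospholipids (0.60 ± 0.07), were also called higher, and Lpcat3 was at 0.57, under the fold threshold, without NKO_IL4 replicate 2. Lpl, lipoprotein lipase, differed by 0.25 ± 0.05, under the fold threshold. Cd5l, a secreted protein of tissue macrophages, went the other way, from 639 and 617 CPM to 388 and 412 CPM (log2 change -0.65 ± 0.07). In this list 12 of 17 members had a positive difference and 5 a negative one, and over all genes tested 49.4% were positive.

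Of 22 cholesterol synthesis and uptake genes tested, 12 were called higher and none lower. Another 4 passed the adjusted p upward without reaching the fold threshold. The median log2 difference of the list was 0.68. Sqle, squalene epoxidase, went from 18.7 and 17.4 CPM to 51.5 and 55.0 CPM (log2 change 1.56 ± 0.10, adjusted p = 3.06e-15). Both knockout libraries lay above both controls. Other members called higher were Hmgcs1 (0.79 ± 0.12), Mvd (0.70 ± 0.14), Msmo1 (0.68 ± 0.07), Hsd17b7 (0.68 ± 0.18), Sc5d (0.69 ± 0.10), Dhcr7 (0.84 ± 0.06), Insig1 (0.69 ± 0.12) and Stard4 (0.91 ± 0.11). Fdft1, squalene synthase, was not called (0.14 ± 0.06). It overlaps Ctsb, which averaged 15200 CPM in WT_IL4, on the opposite strand over 773 bp. Hsd17b7 lost its call without NKO_IL4 replicate 2 (0.39) or WT_IL4 replicate 2 (0.42), and Msmo1 was under the fold threshold without WT_IL4 replicate 2 (0.55). The number of called members ranged from 9 to 13 over the alternative settings.

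Of 13 fatty acid synthesis genes tested, 4 were called higher, among them both desaturases, and none lower. Acsl3, which activates long-chain fatty acids, went from 6.61 and 7.53 CPM to 11.4 and 14.3 CPM (0.86 ± 0.17, adjusted p = 0.000134). Acaca, acetyl-CoA carboxylase, went from 7.23 and 8.22 CPM to 12.7 and 14.4 CPM (0.81 ± 0.16, adjusted p = 0.00016). Acly, ATP citrate lyase, was not called (0.10 ± 0.06). Acsl3 overlaps Utp14b on the same strand over 9777 bp, so part of its reads may belong to that gene. Among 15 PPAR and lipid storage genes, Plin2, which coats lipid droplets, went from 974 and 998 CPM to 1843 and 1862 CPM (0.91 ± 0.05, adjusted p = 2.73e-21). Hilpda, a lipid droplet protein, went from 4.17 and 4.07 CPM to 8.34 and 7.58 CPM (0.95 ± 0.21, adjusted p = 0.000682). These 2 were the only members of that list that were called, and Cd36, a fatty acid receptor, passed the adjusted p but not the fold threshold (0.47 ± 0.05).

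**Figure D2:**
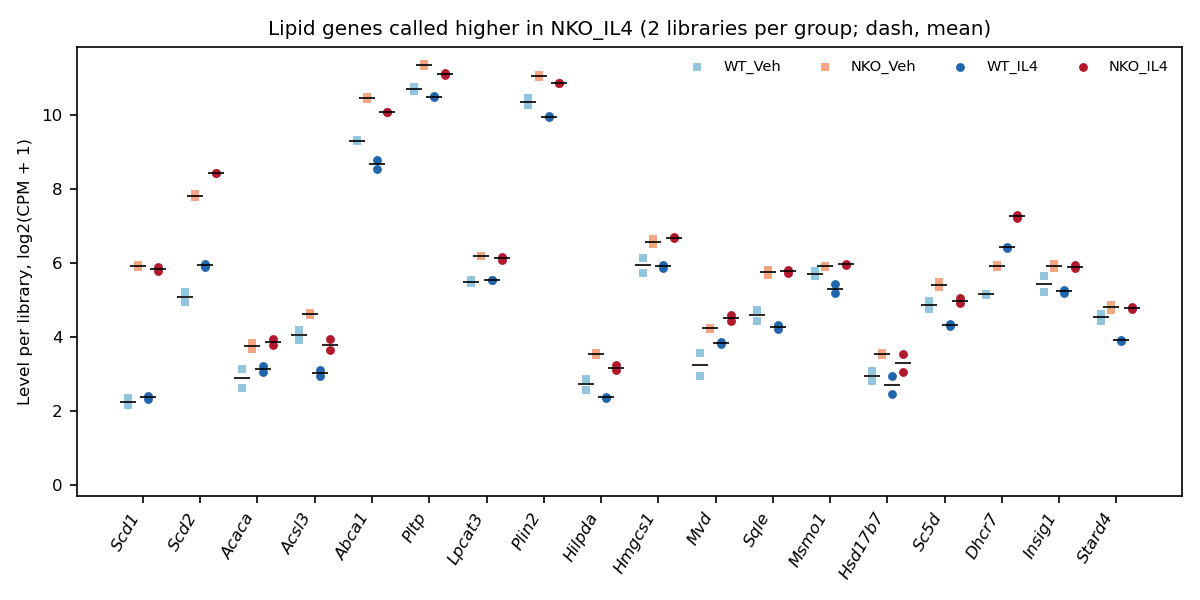
Level per library in log2(CPM + 1) of 18 lipid genes called higher in NKO_IL4, with 2 libraries per group as points and their mean as a dash. For each gene the red NKO_IL4 points lie above the blue WT_IL4 points, and the orange NKO_Veh points lie above the pale blue WT_Veh points.

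Promoters of 2 of these genes are shown because sequences known to be read by LXR and by the sterol regulator SREBP fall in them. The promoter sequences (250 bases before the transcription start and 50 after it, RefSeq, GRCm38.p6) are printed along the strand of the gene, with the match in capitals. The letters searched, on both strands, were GGTNA followed after any 5 bases by GGTNA again (N is any base), a loose form of the direct repeat that LXR binds, and TCACCCCAC, a form of the sterol regulatory element.
Abca1, chr4:53159846-53160145, minus strand: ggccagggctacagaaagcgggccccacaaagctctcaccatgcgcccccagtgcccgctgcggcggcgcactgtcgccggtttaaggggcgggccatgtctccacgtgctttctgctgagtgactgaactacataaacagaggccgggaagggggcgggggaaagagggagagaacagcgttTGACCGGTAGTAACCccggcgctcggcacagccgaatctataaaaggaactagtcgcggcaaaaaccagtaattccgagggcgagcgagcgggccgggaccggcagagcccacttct
Hmgcs1, chr13:119690101-119690400, plus strand: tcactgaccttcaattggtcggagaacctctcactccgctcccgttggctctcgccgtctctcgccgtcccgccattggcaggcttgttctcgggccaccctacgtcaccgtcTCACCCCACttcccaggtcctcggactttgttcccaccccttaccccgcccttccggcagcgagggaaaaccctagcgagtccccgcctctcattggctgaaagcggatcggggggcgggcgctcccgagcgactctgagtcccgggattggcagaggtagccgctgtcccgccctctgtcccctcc
The repeat lies in the reverse orientation in the Abca1 promoter and was found in 0.482% of the 9956 promoters of tested genes, in 2 of 185 promoters of genes called higher (1.08%), in 2 of 222 of genes called lower (0.901%) and in 1 of 11 of LXR target genes. The sterol element was found in 0.462% of all promoters, in 3 of 185 promoters of genes called higher (1.62%), in 1 of 222 of genes called lower (0.45%) and in 1 of 14 promoters of cholesterol synthesis genes, that of Hmgcs1. A match is a stretch of letters and not a measured binding site.

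Mmp9 (chr2:164948219-164955850, plus strand), a gelatinase, was at 48.1 and 42.3 CPM in WT_IL4 and at 437 and 420.2 CPM in NKO_IL4, 9.48-fold higher (log2 change 3.25 ± 0.22, adjusted p = 2.3e-07). Mmp13 (chr9:7272514-7283333, plus strand), a collagenase, was at 41.4 and 34.0 CPM against 202 and 224 CPM (2.50 ± 0.14, adjusted p = 1.07e-08). Mmp12, macrophage elastase, was at 1551 and 1464 CPM against 4195 and 4224 CPM (1.48 ± 0.06, adjusted p = 2.4e-27). The knockout libraries stood clear of the controls for all 3 proteases. Mmp8 also rose (1.16 ± 0.15). Of 14 matrix metalloproteinases and inhibitors, these 4 were called higher, while Mmp14, a membrane-bound protease (-0.87 ± 0.24), and the inhibitor Timp1 (-0.83 ± 0.23) were called lower. Mmp14 lost its call when any single IL4 library was left out, and Timp1 lost it without NKO_IL4 replicate 2.

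Among chemokines, Ccl6 (chr11:83587886-83593087, minus strand) was at 146 and 136 CPM in WT_IL4 and at 799 and 729.7 CPM in NKO_IL4, 5.44-fold higher (log2 change 2.44 ± 0.12, adjusted p = 3.62e-09). Ccl9 (chr11:83572917-83578636, minus strand), its neighbour in the same chemokine cluster, was at 516 and 462 CPM against 1730 and 1675 CPM (1.80 ± 0.06, adjusted p = 1.79e-33). The groups did not overlap for either gene. Ccl6 overlaps E230016K23Rik on the other strand over 5202 bp. Cxcl14 was called higher as well (0.77 ± 0.20, adjusted p = 0.0158) but lost its call when any single IL4 library was left out, with adjusted p between 0.0596 and 0.122. The other 17 of 20 chemokines were not called. Of the receptors, Ccr1, which binds CCL6 and CCL9, was at 24.9 and 23.98 CPM against 71.5 and 66.6 CPM (1.50 ± 0.12, adjusted p = 1.71e-09). Ccrl2 rose by 1.02 ± 0.08, whereas Cxcr3 fell by 0.92 on the log2 scale (adjusted p = 0.0105). Cxcr3 lost its call under DESeq2 and without NKO_IL4 replicate 2 or WT_IL4 replicate 1.

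Siglecf (chr7:43351341-43359470, plus strand), an inhibitory sialic acid receptor best known from eosinophils and alveolar macrophages, was at 1.26 and 1.38 CPM in WT_IL4 and at 13.1 and 12.3 CPM in NKO_IL4, 9.51-fold higher (log2 change 3.25 ± 0.23, adjusted p = 3e-17). The summed eosinophil markers Epx, Prg2 and Il5ra stayed between 0.0708 and 0.231 CPM in the 4 libraries. Of 13 Siglec and CD300 receptors tested, 3 were called lower. Siglec1, the sialoadhesin of macrophages, went from 264 and 305 CPM to 149 and 155 CPM (-0.90 ± 0.10, adjusted p = 9.71e-06). Cd300lf (-1.11 ± 0.32) and Cd300e (-1.77 ± 0.63) were called lower at levels of 0.142 to 2.99 CPM, and Cd300e lost its call under DESeq2, without the filter on low counts and without any of WT_IL4 replicate 1, NKO_IL4 replicate 1 or NKO_IL4 replicate 2, with a log2 change of -0.85 without WT_IL4 replicate 1. Cd300lf lost its call without WT_IL4 replicate 1 or NKO_IL4 replicate 1.

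The remaining leading increases were Vsig8, an immunoglobulin-domain membrane protein (2.17 ± 0.25), Flnc, the actin cross-linker filamin C (1.97 ± 0.26), Il1rl2, the receptor of IL36 cytokines (1.93 ± 0.18), Met, the receptor of hepatocyte growth factor (1.93 ± 0.26), and Eef1a2, a translation elongation factor (1.86 ± 0.11). Il1rl2 went from 4.64 and 4.00 CPM to 16.2 and 16.8 CPM. Eef1a2 went from 16.0 and 13.6 CPM to 56.4 and 51.5 CPM. Fn1, fibronectin, which was chosen after its values were seen, was at 208 and 234 CPM against 787 and 769.5 CPM (1.82 ± 0.18, adjusted p = 1.08e-05). Of 7 osteoclast genes, 3 were called higher, namely Acp5, tartrate-resistant acid phosphatase (1.31 ± 0.08), Dcstamp, a fusion protein (1.18 ± 0.16), and Ctsk, cathepsin K (1.04 ± 0.09).

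Nr1d1 (chr11:98767932-98775377, minus strand), which encodes the nuclear receptor REV-ERBα of the circadian clock, was at 7.08 and 8.84 CPM in WT_IL4 and at 31.2 and 26.8 CPM in NKO_IL4 (log2 change 1.86 ± 0.13, adjusted p = 1.6e-17). Dbp, a clock output factor, went from 37.0 and 37.4 CPM to 70.9 and 76.2 CPM (0.98 ± 0.08, adjusted p = 3.1e-15). Bhlhe40, a clock-linked repressor that IL4 itself raised, went from 196 and 194 CPM to 396 and 382 CPM (1.00 ± 0.07, adjusted p = 1.93e-12). The genotypes did not overlap for these 3 genes. Thra, the thyroid hormone receptor gene, rose by 0.93 ± 0.11, but it overlaps Nr1d1 on the opposite strand over 1075 bp. The file headers name no strand option, whereas the methods of the study describe strand-specific counting, and without strand the reads of such pairs could not be told apart. Other such pairs include Pltp with Ctsa (1515 bp shared), Dbp with Sphk2 (741 bp) and Timp1 with Syn1 (4572 bp). Per2 (0.80 ± 0.18) and Bhlhe41 (0.69 ± 0.08) made up the 6 called of 27 nuclear receptor and clock genes, all of them higher.

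**Figure D3:**
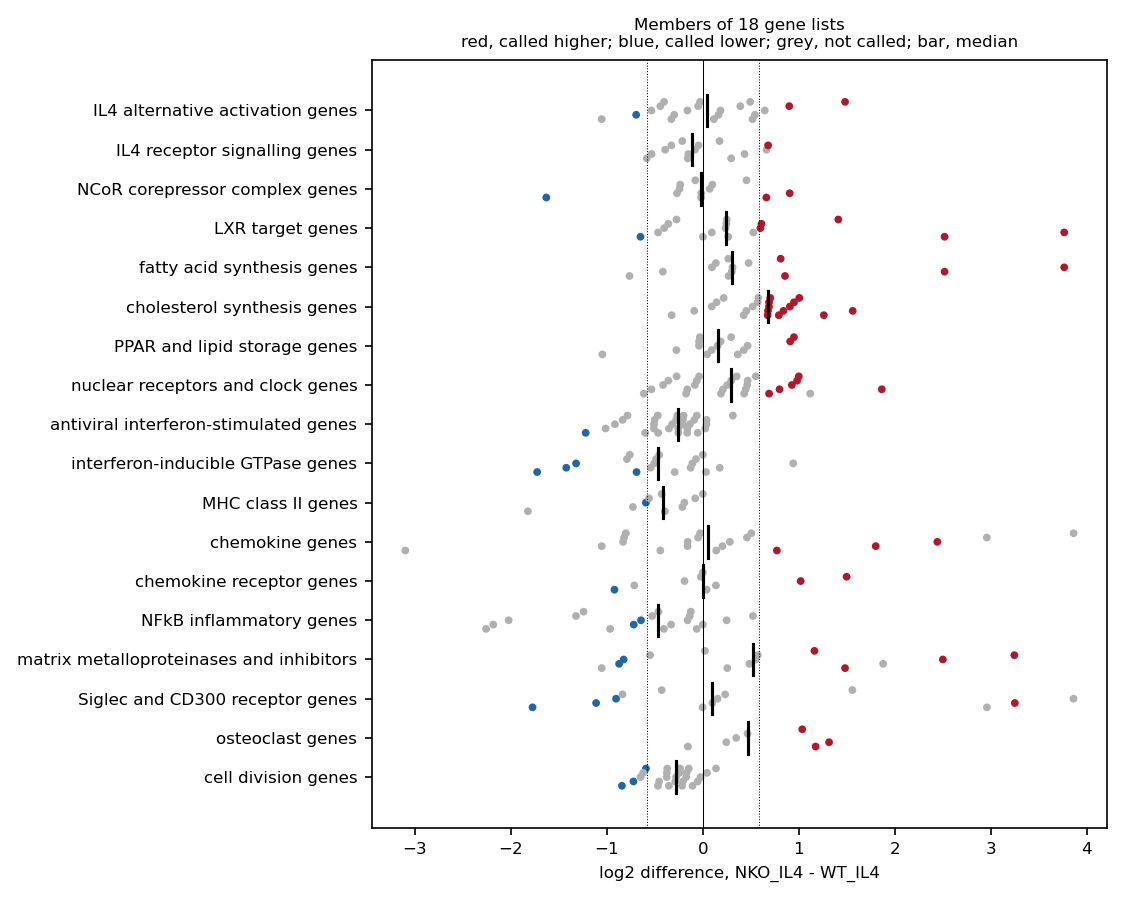
Log2 difference between NKO_IL4 and WT_IL4 for each tested member of 18 gene lists, with called members in red or blue, members not called in grey, the list median as a bar and the 1.5-fold limits as dotted lines. The cholesterol synthesis list has 12 red points and a median of 0.68, and the interferon-inducible GTPase list has 4 blue points and a median of -0.47.

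The next comparisons asked how genes of the IL4 programme stood in the knockout. In WT cells IL4 raised 889 genes (6.63% of those tested) and lowered 866 (6.46%), and in NKO cells it raised 899 (6.71%) and lowered 726 (5.42%). Of 20 alternative activation genes tested, 16 were called raised by IL4 in WT. In the comparison of NKO_IL4 with WT_IL4 2 of the 20 were called higher, 1 was called lower, and the list median was 0.04. Over the list, 10 differences were positive and 10 negative, from -1.05, in a gene that was not called, to 1.48. Retnla, a secreted resistin-like protein, was at 55.6 and 57.5 CPM in WT_IL4 and at 65.3 and 61.4 CPM in NKO_IL4 (log2 difference 0.16 ± 0.10, adjusted p = 0.303). Chil3, a chitinase-like protein, was at 66.1 and 74.3 CPM against 81.0 and 78.5 CPM (0.18 ± 0.07, adjusted p = 0.0758). Pdcd1lg2, the ligand PD-L2, was at 58.9 and 61.1 CPM against 64.5 and 65.5 CPM (0.12 ± 0.10, adjusted p = 0.511). The knockout libraries were slightly above the controls for all 3, and none of the differences passed the test. These 3 genes were chosen after their values were seen.

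Arg1, which encodes an arginase, was called higher. Arg1 had at most 0.0718 CPM in the vehicle libraries of either genotype, 83.8 and 67.7 CPM in WT_IL4 and 139 and 143 CPM in NKO_IL4 (log2 change 0.90 ± 0.10, adjusted p = 1.59e-09). Both knockout libraries exceeded both controls. Mmp12, the other listed gene called higher, was not raised by IL4 in WT. Flt1, a VEGF receptor induced by IL4, was lower, at 119.9 and 109 CPM in WT_IL4 against 65.3 and 76.3 CPM in NKO_IL4 (-0.69 ± 0.09, adjusted p = 3.08e-07). Mrc1, the mannose receptor, was at 2139 and 2219 CPM against 1673 and 1620 CPM (-0.40 ± 0.06), under the fold threshold. The transcription factors Irf4 (0.52 ± 0.08), Klf4 (0.54 ± 0.08) and Egr2 (0.39 ± 0.09) also passed the adjusted p without the fold threshold, and Klf4 was at 0.62 and called without WT_IL4 replicate 1.

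Among 14 genes of IL4 receptor signalling, only Socs2, a feedback inhibitor, was called. Over all genes tested 4.24% were called, so 1 call in 14 says little about the list. Socs2 was at 23.8 and 20.7 CPM in WT_IL4 and at 36.0 and 35.2 CPM in NKO_IL4 (0.68 ± 0.13, adjusted p = 4.52e-05), and without WT_IL4 replicate 2 it was 0.58, just under the fold threshold. Il4ra, the receptor chain, differed by -0.16 ± 0.14 and Stat6 by 0.17 ± 0.05. Socs1 was at 153 and 134 CPM against 104 and 93.8 CPM (-0.53 ± 0.07), under the fold threshold, and was called without NKO_IL4 replicate 1 (-0.61) or WT_IL4 replicate 2 (-0.63). Jak1, a kinase bound to the receptor, differed by 0.30 ± 0.05.

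**Figure D4:**
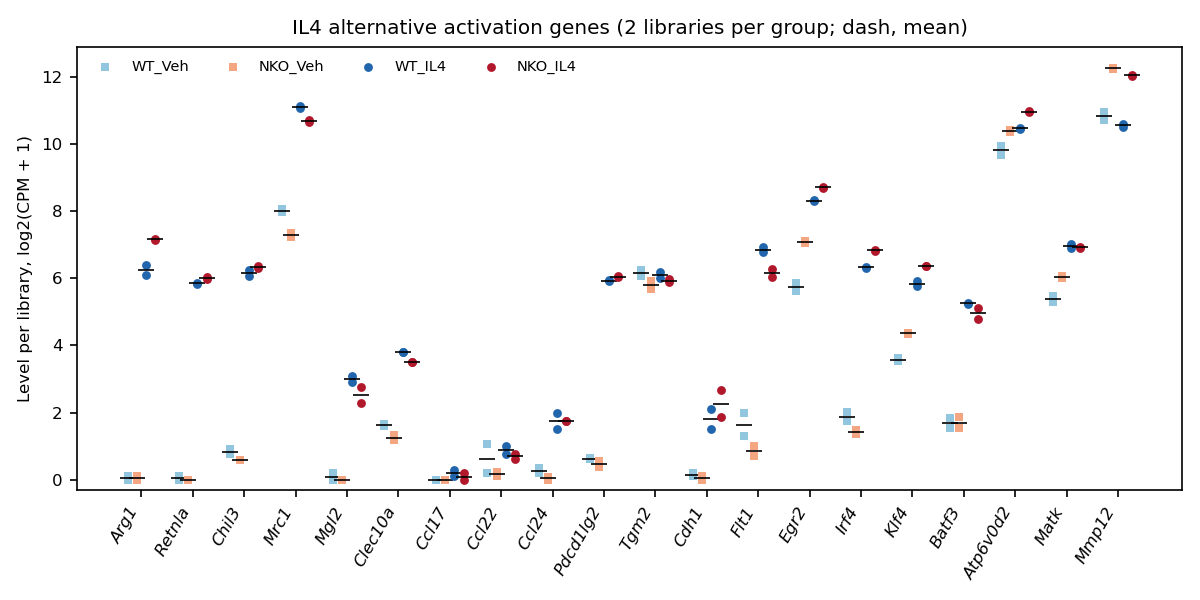
Level per library in log2(CPM + 1) of the 20 tested IL4 alternative activation genes in 4 groups, with 2 libraries per group as points and their mean as a dash. Arg1, Retnla and Chil3 rise from near 0 with IL4 in both genotypes, and of these only Arg1 shows NKO_IL4 points well above the WT_IL4 points.

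Of the 313 genes called lower, 63 were called raised and 50 lowered by IL4 in WT, and of the 255 called higher, 44 were raised and 52 lowered. These calls share the WT_IL4 libraries, so nothing is read from the counts. Some of the 63 genes are described next. Ggt5 (chr10:75589381-75617200, plus strand), a gamma-glutamyltransferase of leukotriene metabolism, was at 0.619 and 0.479 CPM in WT_Veh, at 6.29 and 5.15 CPM in WT_IL4 and at 1.85 and 1.77 CPM in NKO_IL4 (log2 change between genotypes -1.65 ± 0.29, adjusted p = 1.74e-05). Apol7c (chr15:77524867-77533315, minus strand), of the apolipoprotein L family, was at 0.0688 and 0.205 CPM in WT_Veh, at 10.9 and 9.76 CPM in WT_IL4 and at 3.83 and 4.67 CPM in NKO_IL4 (-1.28 ± 0.18, adjusted p = 1.31e-07). B3gnt7, a glycosyltransferase, was at 26.9 and 20.7 CPM in WT_IL4 and at 13.3 and 12.3 CPM in NKO_IL4 (-0.89 ± 0.17, adjusted p = 7.01e-05). In each the knockout libraries were below both controls, which follows from choosing genes called lower, and above the vehicle libraries. Nothing is read from this order. Pecam1, the adhesion receptor CD31 (-1.04 ± 0.13), Tarm1, an activating receptor of myeloid cells (-1.002 ± 0.16), and Patj, a polarity scaffold (-1.07 ± 0.26), showed the same order and were chosen after their values were seen. Patj lost its call under DESeq2 (adjusted p = 0.0818).

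Other leading decreases were spread over several functions. Tmc8 (chr11:117782658-117793137, plus strand), a transmembrane channel-like protein, was at 6.21 and 6.38 CPM in WT_IL4 and at 2.46 and 1.13 CPM in NKO_IL4 (log2 change -1.79 ± 0.26, adjusted p = 2.01e-07). Tox2, an HMG-box transcription factor, was at 4.88 and 5.53 CPM against 1.71 and 1.56 CPM (-1.67 ± 0.30). Fscn1, the actin bundler fascin, was at 11.3 and 14.1 CPM against 4.51 and 5.17 CPM (-1.39 ± 0.16). All 3, already called on these libraries, showed no overlap between genotypes. The Tmc8 change was -2.46 without NKO_IL4 replicate 1 and -1.35 without NKO_IL4 replicate 2. Tmem171 (-1.28 ± 0.21), Marcksl1, a MARCKS-like actin regulator (-1.15 ± 0.23), Cyr61, a matricellular protein (-1.14 ± 0.17), and Plcb2, a phospholipase C (-1.13 ± 0.12), completed the 12. Cyr61 and Ctgf (46.6 and 53.7 against 22.3 and 25.7 CPM) are also made by stromal cells. They fell beside the stromal markers given above, whose part in these differences was not tested.

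Interferon-inducible GTPases were lower or not called. Of 18 tested, 4 were called lower and none higher, with a median log2 difference of -0.47, and the number called lower was 2 to 5 over the alternative settings. Gbp9 was at 55.0 and 55.6 CPM in WT_IL4 and at 33.4 and 35.1 CPM in NKO_IL4 (-0.69 ± 0.10, adjusted p = 8.77e-06). Gbp6 was at 4.25 and 3.61 CPM against 1.09 and 2.05 CPM (-1.32 ± 0.27, adjusted p = 0.000225). Gbp5 (chr3:142496934-142522344, plus strand) was at 11.01 and 8.46 CPM against 3.08 and 4.18 CPM (-1.42 ± 0.39, adjusted p = 0.0217). The groups did not overlap for these guanylate-binding proteins, which act against intracellular microbes, but Gbp5 lost its call without NKO_IL4 replicate 1, NKO_IL4 replicate 2 or WT_IL4 replicate 1 and in the fit of the 16 libraries of one date stamp. Gbp8 was called at levels of 0.0684 to 2.08 CPM and had a log2 change of -1.73, which was -0.80 without NKO_IL4 replicate 1 and -4.66 without NKO_IL4 replicate 2, and it also lost its call without WT_IL4 replicate 1 or WT_IL4 replicate 2. The GTPases are a family of similar genes, and how shared reads were assigned was not tested. The lower values were not particular to IL4. At vehicle 13 of the 18 were called lower, with a median log2 difference of -1.45, which was -0.595 without WT_Veh replicate 2.

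The Gbp5 promoter is shown because the core of the interferon-stimulated response element, searched on both strands as GAAA followed after any 2 bases by GAAA again, recurs in this family.
Gbp5, chr3:142496684-142496983, plus strand: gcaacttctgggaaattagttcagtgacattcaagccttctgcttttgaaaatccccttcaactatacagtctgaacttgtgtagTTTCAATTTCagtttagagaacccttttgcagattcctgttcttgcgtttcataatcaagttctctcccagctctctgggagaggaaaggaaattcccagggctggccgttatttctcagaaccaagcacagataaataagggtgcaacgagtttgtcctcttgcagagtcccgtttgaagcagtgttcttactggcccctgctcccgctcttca
The match in capitals is in the reverse orientation. The core was found in 3.36% of the promoters of tested genes and in 9 of 10 promoters of the GTPases. It was found in 17 of 222 promoters of genes called lower at IL4 (7.66%) and in 4 of 185 of genes called higher (2.16%). Antiviral interferon-stimulated genes had it in 12 of 21 promoters (57.1%), although 1 of 30 listed members was called. Of the 4 GTPases called lower, only Gbp5 was among the 9 with a match. A match is a stretch of letters and not a measured binding site, and a link to the lower levels was not tested.

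Of 30 antiviral interferon-stimulated genes tested, Irf7, a transcription factor of the interferon response, was the only one called, and none was higher. Over all genes tested 2.33% were called lower, so 1 call in 30 says little about the list. Irf7 was at 73.1 and 65.4 CPM in WT_IL4 and at 27.0 and 32.4 CPM in NKO_IL4 (-1.22 ± 0.31, adjusted p = 0.0159), and it lost its call without NKO_IL4 replicate 1, NKO_IL4 replicate 2 or WT_IL4 replicate 1. The median of the list was -0.26, with 26 of 30 members negative, and the number called lower was 0 to 5 over the alternative settings. Without IL4, 24 of the 30 were called lower in NKO_Veh, and 6 of 30 were called lower when WT_Veh replicate 2 was left out. That library stood above its partner in these genes, with Irf7 at 97.6 CPM against 40.9 CPM in WT_Veh replicate 1. The 2 WT_Veh libraries also differed more across genes in general. The chi-square per degree of freedom between replicates was 5.87 in WT_Veh, 1.75 in NKO_Veh, 2.31 in WT_IL4 and 1.88 in NKO_IL4. This bears on every comparison with vehicle.

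Of 10 MHC class II genes tested, H2-Eb1 was called lower, from 23.98 and 23.9 CPM to 15.5 and 16.2 CPM (-0.59 ± 0.15, adjusted p = 0.009), and it lost its call when any single IL4 library was left out. Cd74, the invariant chain, was at 292 and 279.6 CPM against 204 and 183 CPM (-0.56 ± 0.17), under the fold threshold. Of 19 inflammatory NFκB genes, Icam1, an adhesion molecule, went from 55.3 and 48.4 CPM to 32.4 and 30.5 CPM (-0.72 ± 0.13, adjusted p = 0.00112), and Tnf was called lower at 2.69 to 5.504 CPM (-0.64 ± 0.19, adjusted p = 0.0133). Tnf lost its call without NKO_IL4 replicate 2 or WT_IL4 replicate 1. Of 25 cell division genes, 3 were called lower, namely Tyms (-0.84 ± 0.26), Aurkb (-0.72 ± 0.20) and Cdk1 (-0.59 ± 0.16), and none of these was called without WT_IL4 replicate 1. Tyms (-0.57) and Aurkb (-0.59) also lost their calls without NKO_IL4 replicate 1. The list median was -0.28, and 23 of 25 members were negative. For each list in this paragraph, the share called lower over all genes tested was 2.33%. At vehicle, 6 MHC class II genes (median -0.81), 5 NFκB genes (-0.69) and 9 cell division genes (-0.43) were called lower. Without WT_Veh replicate 2 these medians were -0.52, -0.16 and -0.63.

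The genotypes were also compared without IL4. In NKO_Veh against WT_Veh, 322 genes were higher (2.4%) and 510 were lower (3.8%), and this comparison shared no library with that at IL4. Of the genes higher at IL4, 152 were also higher at vehicle, which is 59.6% of the IL4 list and 47.2% of the vehicle list. Of the genes lower at IL4, 150 were also lower at vehicle, which is 47.9% of the IL4 list and 29.4% of the vehicle list. Of the genes called at IL4, 0 were called in the opposite direction at vehicle. Of the 255 higher genes, 243 had a positive log2 difference at vehicle, with a median over the 255 of 0.77. Of the 313 lower genes, 292 had a negative one, with a median over the 313 of -0.66. The share with equal signs over all genes tested was not counted. The log2 changes at vehicle were 3.97 for Scd1, 2.76 for Scd2, 3.06 for Mmp9, 2.86 for Siglecf and 2.17 for Ccl6. Without WT_Veh replicate 2, the shared genes were 146 higher and 138 lower, and without WT_Veh replicate 1 they were 152 and 122.

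The difference between the 2 genotype effects was tested directly. It was called for 81 genes (0.604%), of which 47 (0.351%) had a higher log2 difference at IL4 than at vehicle and 34 (0.254%) a lower one. The counts were 204 and 75 without WT_Veh replicate 1 and 29 and 40 without WT_Veh replicate 2, and 38 of the 81 genes were called without WT_Veh replicate 2. Of the 255 genes higher at IL4, 4 were also called for a higher effect at IL4 than at vehicle, and 4 for a lower one. Of the 313 lower genes, 5 were called for a lower effect at IL4 and 2 for a higher one.

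Dusp1, a phosphatase that shuts off MAP kinases, kept its call for this difference in every alternative that was run. Dusp1 was at 70.9 and 84.4 CPM in WT_Veh and at 35.2 and 36.6 CPM in NKO_Veh, but at 33.3 and 28.98 CPM in WT_IL4 and at 37.5 and 37.7 CPM in NKO_IL4. The knockout libraries were below the controls at vehicle and slightly above them at IL4 (log2 differences -1.11 and 0.27, difference of effects 1.38 ± 0.13, adjusted p = 6.97e-10). Ccl9 rose in the knockout under both conditions, by 1.00 ± 0.06 at vehicle and by 1.80 ± 0.06 at IL4 (difference 0.80 ± 0.08, adjusted p = 2.41e-10). Irf4, a factor induced by IL4 and needed for alternative activation, was at 2.34 and 3.01 CPM in WT_Veh and at 1.58 and 1.77 CPM in NKO_Veh, against 79.7 and 78.2 CPM in WT_IL4 and 114 and 112 CPM in NKO_IL4. Its difference of effects was 1.18 ± 0.26 (adjusted p = 0.00326), which lost its call without WT_Veh replicate 2 (0.99, adjusted p = 0.0894).

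Egr2 and Matk, a transcription factor and a kinase that IL4 raises, were above control in NKO_Veh and closer to control with IL4. Egr2 was at 56.7 and 48.0 CPM in WT_Veh and at 131 and 138 CPM in NKO_Veh, and at 311 and 323 CPM in WT_IL4 and 421 and 410.2 CPM in NKO_IL4. The genotype groups stayed apart in both conditions, and the difference of effects was -0.97 ± 0.15 (adjusted p = 0.00169). Matk was at 43.3 and 38.4 CPM in WT_Veh and at 66.6 and 63.9 CPM in NKO_Veh, whereas the IL4 libraries of both genotypes lay between 118 and 127 CPM (difference -0.70 ± 0.10, adjusted p = 2.44e-06). Irf4, Egr2 and Matk were singled out after their values were seen.

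The other genes with the largest differences of effects were expressed at low levels, B3gnt7 only at vehicle. B3gnt7 was at 1.45 and 0.547 CPM in WT_Veh and at 2.01 and 1.48 CPM in NKO_Veh, so that it was lower in the knockout at IL4 only (difference -1.68 ± 0.42, adjusted p = 0.012). Llgl2, a polarity protein, differed by -1.33 ± 0.35 (adjusted p = 0.0148), A530088E08Rik by -1.24 ± 0.32 (adjusted p = 0.0143) and Tmem267 by 1.21 ± 0.35 (adjusted p = 0.0345). Tmem267 was at 3.15 and 3.08 CPM in WT_IL4 and at 8.82 and 8.07 CPM in NKO_IL4, but at 2.13 to 2.87 CPM in the vehicle libraries. Each of these 4 differences lost its call when 1 or more single libraries were left out, including WT_Veh replicate 2 for B3gnt7 (-1.14, adjusted p = 0.151), Llgl2 (-1.21, adjusted p = 0.0511) and Tmem267 (1.02, adjusted p = 0.205). B3gnt7, A530088E08Rik and Tmem267 overlap other listed genes on the opposite strand over 840, 569 and 346 bp.

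**Figure D5:**
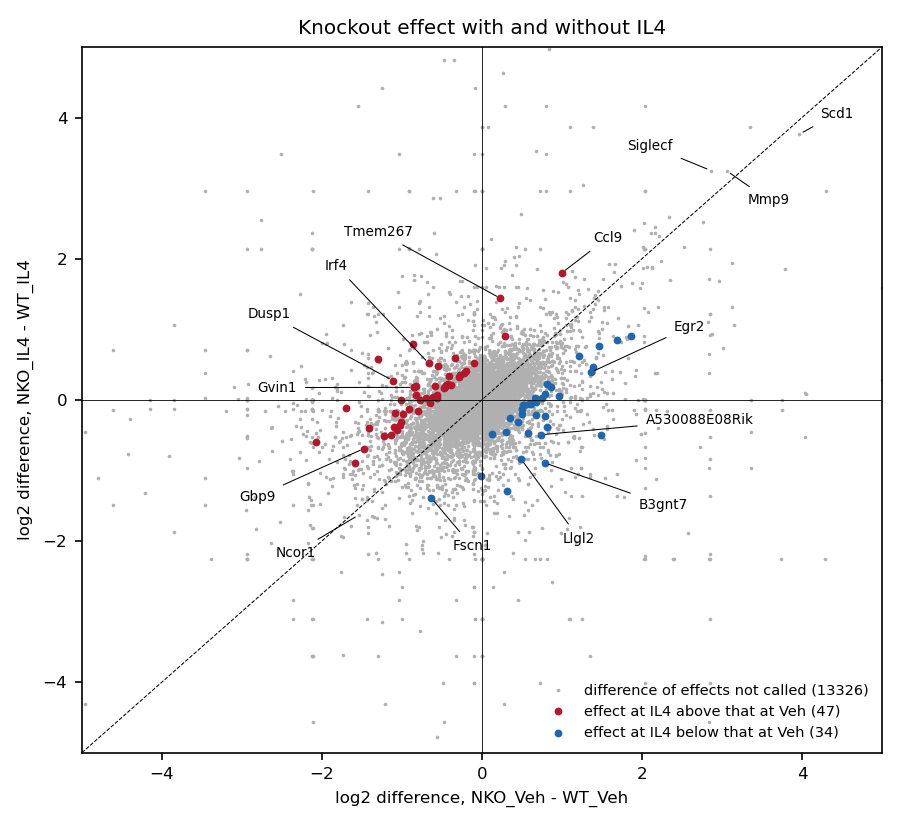
Log2 difference between genotypes at IL4 (vertical axis) against that at vehicle (horizontal axis), 1 point per tested gene, with equal effects on the dashed line and 5 genes beyond the axes. The 47 genes with a higher value at IL4 are red and the 34 with a lower value are blue, and Scd1, Mmp9, Siglecf and Ncor1 lie near the line.

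Against IFNβ, the genotype effect at IL4 differed for 27 genes (0.201%), 10 upward (0.0746%) and 17 downward (0.127%). Against poly I:C it differed for 303 genes (2.26%), 132 upward (0.985%) and 171 downward (1.28%). Mmp13 was at 168 and 186 CPM in WT_IFNb and at 419 and 439.5 CPM in NKO_IFNb, so its genotype effect at IL4 exceeded that at IFNβ by 1.22 ± 0.18 (adjusted p = 0.005). Ccl9 was at 320.1 and 310.4 CPM in WT_IFNb and at 659.9 and 636 CPM in NKO_IFNb, an excess of 0.76 ± 0.08 at IL4 (adjusted p = 2.76e-09). Gbp6 did not separate the genotypes at IFNβ, at 22.9 and 21.3 CPM against 22.5 and 26.2 CPM, and its effect at IL4 was lower by 1.46 on the log2 scale (-1.46 ± 0.29, adjusted p = 0.0039). That difference lost its call without NKO_IL4 replicate 1 or WT_IL4 replicate 1. These comparisons share the 4 IL4 libraries with those at vehicle and are not independent of them.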

How the data were processed

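RNA was sequenced from BMDMs of both genotypes, and the table used holds 24 libraries in 12 groups of 2. The RANKL libraries, which entered only the shared fit, carry the word osteoclast instead of BMDM in their library names. Per the file headers and the methods of the study, the deposited values are raw counts of reads per gene, made by the authors with STAR (mm10) and HOMER, from poly-A, single-end libraries; the study tested them with DESeq2. The versions are not given in the sources used here.

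Counts were scaled by TMM and fitted with edgeR 4.0.16 (R 4.3.3), by the quasi-likelihood test with 1 mean per group over all 24 libraries, so that all groups share the estimate of the spread. Low counts were removed by edgeR's filter, which left 13407 of 24940 genes. P-values were adjusted by the Benjamini-Hochberg method over all genes tested, and a call needed an adjusted p below 0.05 and a change above 1.5-fold. Interactions were tested as the difference of genotype effects. The 4 IL4 libraries held 10675245 to 12966048 counts, and 3 counts equal 0.231 to 0.281 CPM. The fit was tested on simulated data.

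Named genes were the 12 highest and 12 lowest log2 differences among called genes of at least 5 CPM, the 5 largest interactions, up to 4 called members and the most abundant member of each of 18 lists, and the checks Ncor1, Hdac3 and Lyz2. A few genes that the rule names are not reported here. Other list members, markers and the genes said to be chosen after their values were seen are additions to that rule. The members and lists were chosen with earlier results of these data known. Alternatives were DESeq2 1.42.0, its size factors, other filters, no fold threshold, genes under 250 bp left out, fewer libraries in the fit, a replicate block and leaving out each IL4 or vehicle library in turn (no IFNβ or poly I:C library was left out). Promoters came from RefSeq and were matched to 9956 tested genes within 100 bp of the start in the table. Libraries under other ligands than IL4, IFNβ, poly I:C and vehicle entered only the shared fit.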

Additional observations from a re-analysis of the deposited data

Results flagged for a closer look

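The genotype effect at IL4 differed from that at vehicle, by the interaction test, for the following named genes, with the size given as the log2 difference at IL4 minus that at vehicle. It was higher at IL4 for Dusp1 (1.38), Tmem267 (1.21), Irf4 (1.18), Gvin1 (1.03), Gm4070 (1.03), Ccl9 (0.80), Gbp9 (0.78) and Stard4 (0.62). Gvin1 and Gm4070 are listed with identical counts and stand for 1 measurement. It was lower at IL4 for B3gnt7 (-1.68), Llgl2 (-1.33), A530088E08Rik (-1.24), Egr2 (-0.97), Fscn1 (-0.76) and Matk (-0.70).

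Of these, Dusp1, Ccl9, Egr2 and Matk kept their calls in every alternative run. Without WT_Veh replicate 2, the calls were lost for Tmem267, Irf4, Gvin1 (0.51), Gbp9 (0.55), Stard4 (0.51), B3gnt7, Llgl2 and Fscn1 (-0.58).

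Against IFNβ, the genotype effect at IL4 was higher for Mmp13 (1.22), Ccl9 (0.76) and Dusp1 (0.73) and lower for Gbp6 (-1.46), Egr2 (-0.95) and Matk (-0.73). Dusp1 was at 102 and 105 CPM in WT_IFNb and at 71.2 and 79.6 CPM in NKO_IFNb. Both sets of differences use the same 4 IL4 libraries.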

How the results depend on the processing

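Of 94 named genes called at IL4, none changed direction under any alternative run, and 25 lost the call at least once. Genes that were not called could change sign, as Hdac3 did, from -0.08 to 0.0006 without WT_IL4 replicate 1. With no fold threshold, the counts higher and lower were 1269 and 1030 for the genotypes at IL4, 2071 and 2188 for the IL4 response in WT, 2185 and 2057 in NKO, and 1291 and 1399 for the genotypes at vehicle. For the difference of effects they were 288 and 195 against vehicle, 50 and 55 against IFNβ, and 480 and 394 against poly I:C. In fits of the compared groups only, 305 genes were lower at vehicle, and 21 and 46 genes differed against IFNβ. DESeq2 called 18 genes lower against vehicle and 109 against poly I:C, and without the filter on low counts 17 genes were higher against IFNβ. Leaving out 1 library at a time gave 220 to 229 higher and 211 to 269 lower genes at IL4. It gave 29 to 204 higher and 26 to 75 lower for the difference from vehicle, and, with IL4 libraries alone left out, 8 to 14 higher and 9 to 13 lower for that from IFNβ. No IFNβ or poly I:C library was left out. Leaving out vehicle libraries was an alternative chosen after seeing the data. The cause of these shifts was not tested.

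Over the genes tested, same-numbered libraries did not deviate together (r = -0.0048 at IL4). Such a correlation cannot exclude a shared mouse or preparation, and the labels do not say whether the numbers pair the samples. With a replicate block, 253 genes were higher and 313 lower at IL4, no named call at IL4 changed, and Fscn1 lost its interaction with vehicle (adjusted p = 0.0542).

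With 2 libraries per group, calls on genes at low levels depend on single libraries.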
